A study of Caenorhabditis elegans with 24 samples.

Results

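The siRNAs of the hrde-1 mutant were compared with those of WT in the late generations of heat stress, 23C-G4 to 23C-G6, in 6 of the 24 small RNA libraries of a temperature-shift experiment in Caenorhabditis elegans. The strain hrde-1(tm1200), which carries a deletion in the gene of a germline nuclear Argonaute, was set against the strain N2 (WT). Both groups were whole young gravid adults grown at 23 °C on OP50 bacteria from synchronised L1 larvae and harvested 50 to 55 h after L1 release, and both had passed 3 generations at 15 °C (15C-G1 to G3) and 3 at 23 °C (23C-G1 to G3) before the generations compared here. After 23C-G6 the lineages were returned to 15 °C for 3 generations (p15C-G1 to G3). Adults of the generations at 15 °C were harvested 114 to 120 h after L1 release. Each genotype was sampled once per generation, all in biological repeat 2, so that each group of 3 libraries held 3 successive generations of 1 lineage. The p-values and SEs measure only the spread between generations within such groups, estimated from all 24 libraries, and not the spread between lineages.

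In nuclear RNAi of C. elegans, RNA-dependent RNA polymerases copy mRNA templates into antisense siRNAs, and Argonaute proteins carry these to complementary nascent transcripts in the nucleus, where chromatin marked by H3K9 methylation forms and transcription is repressed. HRDE-1 is the nuclear Argonaute of the germline and is needed for the inheritance of silencing, while NRDE-3 acts in somatic cells. Mutants of this pathway are fertile at first but lose fertility over several generations at raised temperature, which is known as a mortal germline.

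Each gene has 1 value per library, its siRNA level in RPKM, which is the number of small RNA reads antisense to the mRNA per kb of exon, scaled to the library's total reads. An antisense siRNA level is not the expression of the gene it matches, so the whole animals could not be checked with tissue markers, and in whole animals fewer cells carrying an siRNA and less siRNA per cell cannot be told apart. Low values lay on steps as if 1 read had been added to each transcript (85.8% of the values checked, in 7806 low transcripts). The depths inferred from this floor were 346600 to 442900 reads in the hrde-1 libraries and 299400 to 552700 in the WT libraries, against 299400 to 1043100 over all 24. The floor of a 1 kb mRNA was thus 2.26 to 2.89 RPKM in hrde-1 and 1.81 to 3.34 RPKM in WT. WT 23C-G4 was the shallowest library. The read numbers below are inferred in this way and assume that 1 step is 1 read, and ratios and intervals made from them cover counting error only. Of 19839 genes tested, a gene was called when its fold change was at least 2 at an adjusted p of at most 0.1 (limma, Benjamini-Hochberg adjustment over all genes). Log2 fold changes are hrde-1 over WT on the log2(RPKM + 1) scale with their SE, n = 3 libraries per genotype, and understate the change of genes with few siRNAs.

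At 23C-G4 to G6, siRNA was higher in the hrde-1 mutant at 531 genes (2.68% of genes tested) and lower at 630 genes (3.18%). The changes were often large. The fold was at least 4 (log2 of 2) at 218 of the genes that rose and 216 of those that fell, and 42 and 24 genes passed a log2 value of 4. At the genes that rose, the median of the gene means was 76.2 RPKM in hrde-1 and 14.2 RPKM in WT. At the genes that fell it was 15.5 RPKM in hrde-1 and 66.6 RPKM in WT. The 3 libraries of one genotype did not overlap with those of the other at 514 of the 531 and 614 of the 630 genes, where over all genes tested 8.08% did not overlap with hrde-1 higher and 8.58% with hrde-1 lower. The calls were made on these same libraries and favour genes without overlap, so these counts are no separate support. The median log2 fold change of all genes was 0.11. It was 0.00 once the read floor was taken off. Protein-coding genes made up 493 of the higher and 555 of the lower genes, and pseudogenes 19 and 42.

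**Figure D1:**
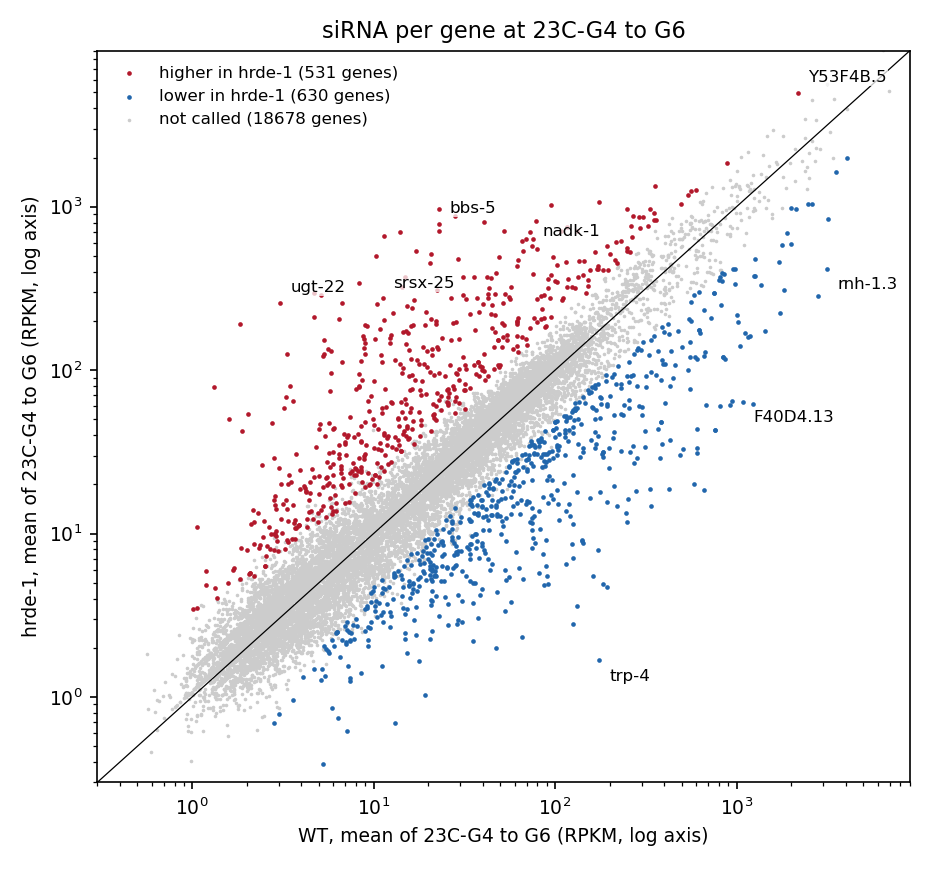
Mean siRNA level of each of 19839 genes at 23C-G4 to G6, with the hrde-1 mutant on the vertical and WT on the horizontal axis (RPKM, both axes logarithmic, mean of 3 libraries each), where the diagonal marks equal levels. The 531 genes higher in hrde-1 lie above the diagonal and the 630 lower genes below it. ugt-22 and trp-4 lie farthest from the diagonal among the labelled genes.

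The siRNAs of the mutated gene itself were lower by less than 2-fold. hrde-1 (C16C10.3, chromosome III, 4172337 to 4176159 in WBcel235) had 151, 134 and 159 RPKM in the hrde-1 libraries 23C-G4, G5 and G6, against 269, 249.69 and 298 RPKM in the WT libraries (−0.88 ± 0.12, limma adjusted p = 1.39e-05). Every mutant library was thus under every WT library, which is a check of the labels only in so far as siRNAs over the gene depend on its transcript. hsp-16.48, a small heat shock protein gene used as a control of temperature, had 96.8, 94.1 and 100.8 RPKM in hrde-1, against 128, 25.3 and 118 RPKM in WT (0.41 ± 0.47, limma adjusted p = 0.851). The mutant libraries lay inside the WT range. Its values were identical to those of its copy hsp-16.49 in every library.

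The genes with the largest gains stood at high siRNA levels in the mutant and at a few reads in WT. ugt-22 (C08F11.8, chromosome IV, 13639260 to 13644567), a UDP-glucuronosyltransferase gene, had 244, 286 and 247 RPKM in hrde-1 at 23C-G4, G5 and G6, against 3.29, 4.85 and 1.02 RPKM in WT (6.13 ± 0.33, limma adjusted p = 2.97e-12). The WT libraries held 4 reads of it above the floor in all. The acid sphingomyelinase gene asm-3 (W03G1.7, chromosome IV, 520214 to 523809) had 248, 299.73 and 340.02 RPKM in hrde-1, against 3.77, 6.18 and 4.09 RPKM in WT (5.72 ± 0.40), and W03G1.2, the next gene at 524652 to 526491, had 289, 352 and 387 RPKM in hrde-1, against 14.6, 5.74 and 4.74 RPKM in WT (5.34 ± 0.38). F16B4.4 on chromosome V had 598, 647 and 743 RPKM in hrde-1, against 8.25, 21.6 and 4.47 RPKM in WT (5.98 ± 0.37), a ratio of 115.8 in reads (95% counting interval 39.2 to 565). In these genes the lowest mutant library was above the highest WT library, as the choice of the largest gains without overlap required.

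Several of these gains were at single members of gene families. grl-18 (T05C3.4, chromosome V, 5485631 to 5488866), a ground-like gene of the hedgehog-related family, had 94.9, 197 and 284 RPKM in hrde-1, against 2.50, 1.64 and 1.35 RPKM in WT, where no read lay above the floor. Its siRNA was thus at least 111.6-fold higher in the mutant (bound from 3 reads over the WT group). grl-10 (chromosome V), of the same family, had 188, 241 and 203 RPKM in hrde-1, against 3.56, 4.66 and 5.79 RPKM in WT (5.23 ± 0.35). Both genes were high in all 3 mutant libraries and at or near the floor in all 3 WT libraries. The BBSome gene bbs-5 (R01H10.6, chromosome III, 10258831 to 10261782), needed for transport in cilia, had 675, 879 and 812 RPKM in hrde-1, against 27.7, 24.2 and 16.7 RPKM in WT (5.07 ± 0.27). ift-20 (chromosome I), which encodes a subunit of intraflagellar transport, had 703, 776 and 655 RPKM in hrde-1, against 25.7, 33.7 and 9.28 RPKM in WT (5.07 ± 0.45). The groups of both genes lay apart, as the same choice required.

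The other largest gains were at D2045.5 (5.78 ± 0.40), ZK228.4 (5.66 ± 0.59), ZK228.10 (5.53 ± 0.40), Y61A9LA.7 (5.35 ± 0.30), F13D12.8, htrl-1 (4.99 ± 0.60) and T11F9.19 (4.95 ± 0.35). Y61A9LA.7 was the most abundant of them, with 881, 1023 and 1003 RPKM in hrde-1, against 23.7, 19.4 and 25.7 RPKM in WT. For 4 of them the WT libraries held 3 reads or fewer above the floor, so the ratio in reads is loosely bounded. It was 131.9 at D2045.5 (44.8 to 642), 200.7 at ZK228.10 (35.5 to 7970), 75.3 at F13D12.8 (25.4 to 368) and 238 at htrl-1 (42.3 to 9465). Among all called genes, the lower group held 3 reads or fewer at 102 of the genes that rose and 102 of those that fell.

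The largest loss was at trp-4 (Y71A12B.4, chromosome I, 13899085 to 13914008), a mechanosensory TRPN channel gene. It had 1.00, 1.57 and 2.47 RPKM in hrde-1, against 196, 183 and 147 RPKM in WT (−6.06 ± 0.24, limma adjusted p = 7.73e-14). ndx-2 (W02G9.1, chromosome V, 2662964 to 2665003), which encodes a Nudix hydrolase, had 12.1, 15.8 and 27.8 RPKM in hrde-1, against 790.4, 604 and 601 RPKM in WT (−5.16 ± 0.44). rimb-1 (Y39A3CL.2, chromosome III, 1788333 to 1807147), a presynaptic RIM-binding protein gene, had 5.2, 5.23 and 3.66 RPKM in hrde-1, against 194, 218 and 165 RPKM in WT (−5.09 ± 0.27). In all 3 genes every mutant library was more than 20-fold under the lowest WT library. The P-type ATPase gene catp-1 (chromosome I) had 3.23, 4.43 and 3.18 RPKM in hrde-1, against 134, 128 and 135 RPKM in WT (−4.86 ± 0.28), and ads-1 (chromosome III), an enzyme of ether lipid synthesis, had 21.5, 26.5 and 12.1 RPKM in hrde-1, against 656.5, 563 and 528 RPKM in WT (−4.85 ± 0.25). cdh-12 (chromosome III), a cadherin gene, had 9.21, 12.9 and 13.4 RPKM in hrde-1, against 251, 265 and 236 RPKM in WT (−4.31 ± 0.19). For each of these genes the mutant libraries lay more than 10-fold under the lowest WT library, which the choice of the largest losses without overlap favoured.

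The other losses among the 15 largest were at T28D6.4 (−5.02 ± 0.30), W03F11.5, Y37H2B.1, Y73B3A.7 (−4.59 ± 0.32), Y20F4.8, C06B8.7, K03H6.5, K09E3.4 (−4.31 ± 0.22) and ZK262.9 (−4.31 ± 0.25). K09E3.4 on chromosome X was the most abundant in WT, with 63.4, 49.6 and 72.8 RPKM in hrde-1, against 1272, 1270.25 and 1159.69 RPKM in WT. At W03F11.5 the mutant libraries held 2 reads above the floor, and WT over hrde-1 was 92.4 in reads (25.3 to 768). At Y37H2B.1 they held 3 reads, and this ratio was 59.01 (19.9 to 288).

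**Figure D2:**
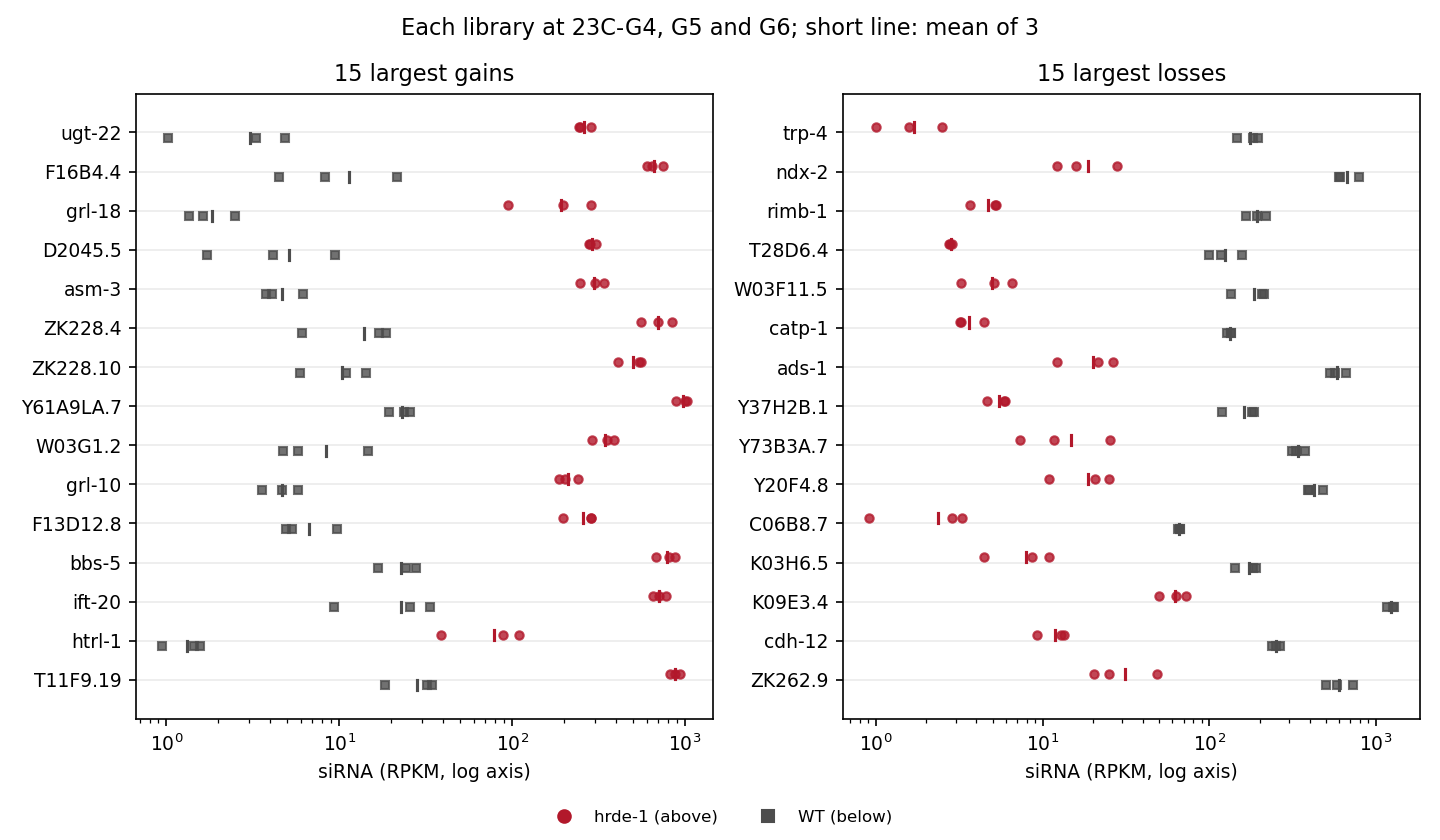
siRNA level of the 15 largest gains (left) and the 15 largest losses (right) in each library at 23C-G4, G5 and G6 (RPKM, logarithmic axis; circles, hrde-1; squares, WT; short lines, mean of 3 libraries). For each gene shown, all hrde-1 libraries lie on one side of all WT libraries, as the choice of these genes required. The levels of ugt-22 were 244 to 286 RPKM in hrde-1 and 1.02 to 4.85 RPKM in WT, and those of trp-4 were 1.00 to 2.47 RPKM in hrde-1 and 147 to 196 RPKM in WT.

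Ranked by the difference in RPKM instead of the fold, 9 of the 10 genes with the most siRNA gained or lost were not among the largest folds, and the other was Y61A9LA.7. Y53F4B.5 (chromosome II, 14982592 to 14984009) had 5011, 4779.77 and 5191 RPKM in hrde-1, against 2334, 2271 and 1938 RPKM in WT (1.20 ± 0.11, limma adjusted p = 1.06e-08), and T16H12.2 had 1437, 1378 and 1178 RPKM in hrde-1, against 385, 309 and 378 RPKM in WT (1.90 ± 0.22). The growth factor gene pvf-1, a PDGF and VEGF relative, had 1869, 1886 and 1785 RPKM in hrde-1, against 1032, 986 and 645 RPKM in WT (1.09 ± 0.15), and F53A3.1 had 937, 1024 and 1092 RPKM in hrde-1, against 97.6, 88.8 and 96.9 RPKM in WT (3.41 ± 0.32). pvf-1, T16H12.2 and F53A3.1 are on chromosome III. The genes of this ranking were chosen to have no overlap between genotypes. The largest losses in RPKM were at rnh-1.3 (chromosome I), an RNase H gene, with 299, 585 and 371 RPKM in hrde-1, against 3362, 3075 and 3017 RPKM in WT (−2.97 ± 0.23), and at F15D4.5 (chromosome II, 13245376 to 13247774), with 258, 284 and 312 RPKM in hrde-1, against 2903, 2829 and 2716 RPKM in WT (−3.31 ± 0.13). W03H9.3, the gene with the highest WT level among these, was close to the fold minimum, with 1864, 2079 and 2039 RPKM in hrde-1, against 4424, 4198 and 3519 RPKM in WT (−1.02 ± 0.10). It missed that minimum without WT 23C-G4 (−0.95), WT 23C-G5 (−0.99) or hrde-1 23C-G4 (−0.97), and pvf-1 missed it without WT 23C-G6 (0.87).

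Nuclear RNAi-repressed heat-inducible genes (NHGs) are genes whose mRNA the study called induced by heat in the hrde-1 mutant and not in WT, and the high-stringent ones were also repressed by HRDE-1 at 23 °C. They were chosen on mRNA of the same experiment and are therefore not independent of it. Of 38 high-stringent NHGs tested, siRNA fell at 18 (47.4%) and rose at 2 (5.26%) in the hrde-1 mutant, where all genes gave 3.18% and 2.68%. The median log2 fold change of these NHGs was −0.88, against 0.11 for all genes. The libraries of the genotypes did not overlap, with hrde-1 lower, at 23 of the 38, against 8.58% of all genes. Among the 18 were AC8.4 and AC8.11 as well as AC8.3 and AC8.10, pairs of copies with identical values. Of the 17 NHGs linked to LTR retrotransposons, 8 fell (47.1%) and 2 rose (11.8%).

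The cumulative NHGs are those whose mRNA the study saw climb over the generations of heat in the mutant. All 6 had lower siRNA in each hrde-1 library than in any WT library, as 8.58% of all genes had, and 5 were called (median −2.54). F40D4.13 (chromosome V, 17155874 to 17157254) had 54.5, 70.4 and 67.5 RPKM in hrde-1, against 1177, 1167 and 897 RPKM in WT (−4.05 ± 0.17, limma adjusted p = 7.73e-14). F41G4.7 (chromosome X, 16834896 to 16836404) had 61.3, 67.9 and 53.4 RPKM in hrde-1, against 932, 960 and 855 RPKM in WT (−3.89 ± 0.23). In both, each mutant library was more than 10-fold under each WT library. C18D4.6 had 60.2, 79.9 and 49.6 RPKM in hrde-1, against 452, 464 and 301 RPKM in WT (−2.66 ± 0.27), and ZC15.3 had 135, 125 and 108 RPKM in hrde-1, against 684, 716 and 585 RPKM in WT (−2.42 ± 0.19). F58H7.5 had 479, 449 and 516 RPKM in hrde-1, against 1212, 1445 and 1119.93 RPKM in WT (−1.38 ± 0.17). ZC15.10 had 464, 466 and 307 RPKM in hrde-1, against 938, 881 and 634 RPKM in WT, just under the 2-fold minimum (−0.99 ± 0.22, limma adjusted p = 0.00348). The other NHGs with large losses were ZK262.9, F57G4.9 (−3.44 ± 0.34) and AC8.4 (−2.96 ± 0.15).

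Some NHGs went the other way. ZC15.1 (chromosome V, 20306103 to 20308919) had 279.94, 319.99 and 279.78 RPKM in hrde-1, against 44.5, 53.3 and 41.6 RPKM in WT (2.64 ± 0.23), although ZC15.3, the next gene tested at 20303588 to 20304908, fell. F41G4.5 on chromosome X had 188, 189.66 and 152 RPKM in hrde-1, against 30.5, 44.5 and 33.1 RPKM in WT (2.27 ± 0.23), beside F41G4.7, which fell.

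In lists of RNAi, heterochromatin and germ granule genes and of loci targeted by 1 class of siRNAs, at most 1 gene per list was called. All genes gave 2.68% higher and 3.18% lower. None of 19 Argonaute genes, a list that left out hrde-1 itself, was called in either direction by limma (median 0.07). Of these 19, 4 were higher and 0 lower at an unadjusted p under 0.05, where all genes gave 7.96% higher and 7.54% lower. The siRNAs of hrde-1 were lower, as given above. Of 20 genes for RNA-dependent RNA polymerases and mutator proteins only the polymerase gene rrf-2 was called. It had 19.6, 28.9 and 29.4 RPKM in hrde-1, against 55.98, 50.4 and 60.7 RPKM in WT (−1.09 ± 0.24, or −0.91 without hrde-1 23C-G4). At an unadjusted p under 0.05, 5 of 18 genes of nuclear RNAi and heterochromatin were higher (27.8%) and 4 lower (22.2%). Of these 18, 1 was called higher and 0 lower. This was set-18 (T22A3.4, chromosome I, 10590703 to 10593968), a SET domain gene, with 97.5, 119.26 and 118.58 RPKM in hrde-1, against 10.26, 5.38 and 4.45 RPKM in WT (3.94 ± 0.29). Of 13 germ granule genes, the P granule gene meg-4 fell, with 12.9, 10.6 and 17.5 RPKM in hrde-1, against 67.4, 112 and 66.3 RPKM in WT (−2.48 ± 0.25). Of 12 loci whose primary siRNAs depend on the Argonaute ERGO-1, 1 fell, E01G4.5, with 609, 339 and 823 RPKM in hrde-1, against 2297, 1084 and 2619 RPKM in WT (−1.75 ± 0.39). The list's median was −0.81, and 7 of the 12 had every mutant library under every WT library, as 8.58% of all genes had.

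In the F-box family, whose proteins bring substrates to SCF ubiquitin ligases, 39 of 356 genes tested fell (10.96%) and 8 rose (2.25%, median −0.04). The shares of all genes were 3.18% lower and 2.68% higher, so F-box gains were no more frequent than elsewhere. fbxa-184 (chromosome II) had 17.4, 7.41 and 9.32 RPKM in hrde-1, against 122, 147 and 106 RPKM in WT (−3.42 ± 0.39), fbxa-115 fell by 2.90 on the log2 scale, and fbxb-97 had 187, 289 and 179.82 RPKM in hrde-1, against 1046, 1008 and 965 RPKM in WT (−2.23 ± 0.14). The groups of these genes did not overlap, which the choice of the largest called changes favoured. In the MATH and BATH families, adaptors of cullin-3 ubiquitin ligases, 11 of 85 fell (12.9%) and 1 rose (1.18%, median 0.01). math-1 had 123, 139.29 and 99.6 RPKM in hrde-1, against 509.98, 657 and 485 RPKM in WT (−2.18 ± 0.18), and bath-21 (−1.71 ± 0.21) and bath-13 (−1.52 ± 0.12) fell as well. Only 7 MATH and BATH genes fell when hrde-1 23C-G6 was left out. Members of both families are close copies of each other, and the sources used here do not state the handling of reads with several matches. A value can therefore hold siRNAs of a relative.

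Genes of cilia and of hedgehog-related proteins changed mostly upward in the few that were called. Of 29 genes of the BBSome and of intraflagellar transport, 5 rose (17.2%) and 2 fell (6.90%, median 0.09). All genes gave 2.68% higher and 3.18% lower. After bbs-5 and ift-20, klp-20, a kinesin-II motor gene, had 198, 297 and 334 RPKM in hrde-1, against 89.05, 143 and 99.8 RPKM in WT (1.31 ± 0.20), and kap-1, another kinesin-II subunit, stood at 6.32 to 9.93 RPKM in hrde-1 and 2.34 to 3.57 RPKM in WT (1.21 ± 0.28). osm-1 (−1.93 ± 0.33) and ifta-1 (−2.04 ± 0.31) fell, both with less than 10 RPKM in every library. Of 54 hedgehog-related genes, 5 rose (9.26%) and 2 fell (3.70%, median 0.12). wrt-5 (W03D2.5, chromosome IV, 4050006 to 4051639), a warthog gene, had 519.57, 603 and 475 RPKM in hrde-1, against 10.6, 20.7 and 20.01 RPKM in WT (4.93 ± 0.33), grd-15 rose by 3.23 ± 0.42 and grl-17 by 2.14 ± 0.45. grl-31 (−2.0 ± 0.44) and grl-27 (−1.98 ± 0.42) fell.

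Of 16 genes of TGF-β signalling, 2 rose (12.5%) and 0 fell, where all genes gave 2.68% higher and 3.18% lower. The 2 genes encode R-Smads of the body size pathway. sma-2 (ZK370.2, chromosome III, 8749680 to 8757089) had 153, 158 and 148 RPKM in hrde-1, against 9.22, 2.98 and 3.70 RPKM in WT (4.74 ± 0.30). sma-3 had 156, 172 and 149 RPKM in hrde-1, against 50.8, 61.5 and 42.6 RPKM in WT (1.61 ± 0.18). The mutant level was thus about the same at both genes and the WT level differed, on a scale that corrects for length.

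Of 24 neuronal genes, 3 rose (12.5%) and 4 fell (16.7%, median 0.00), where all genes gave 2.68% higher and 3.18% lower. trp-4 and rimb-1 were among the 15 largest losses of all genes. Beside them, the kinase gene dlk-1, which acts in axon regeneration, had 45.5, 63.1 and 50.8 RPKM in hrde-1, against 321, 328 and 255 RPKM in WT (−2.48 ± 0.20), and unc-31, which acts in the release of dense core vesicles, was at 0.53 to 0.67 RPKM in hrde-1 and 3.58 to 8.97 RPKM in WT (−2.25 ± 0.34). egl-21, a carboxypeptidase gene of neuropeptide processing, had 410.19, 504 and 555 RPKM in hrde-1, against 67.3, 98.6 and 125 RPKM in WT (2.36 ± 0.35). ida-1 (1.73 ± 0.30) and unc-119 (1.14 ± 0.26) rose too. No neuronal gene that was called had overlapping groups, which the call itself favours.

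Among enzymes of detoxification (UDP-glucuronosyltransferases, cytochromes P450 and glutathione S-transferases), 9 of 186 rose (4.84%) and 1 fell (0.538%, median 0.09). All genes gave 2.68% higher and 3.18% lower. After ugt-22, gst-5 had 178, 164 and 129 RPKM in hrde-1, against 18.4, 21.04 and 32.3 RPKM in WT (2.69 ± 0.46), and gst-43 had 226, 264 and 164 RPKM in hrde-1, against 44.5, 45.3 and 50.9 RPKM in WT (2.17 ± 0.26). gst-15 fell (−2.44 ± 0.51). The number of genes that rose was 5 without hrde-1 23C-G6. Of 280 nuclear hormone receptor genes, 3 rose (1.07%) and 7 fell (2.5%), both under the shares of all genes. nhr-64 had 307, 368 and 424 RPKM in hrde-1, against 62.8, 39.2 and 30.8 RPKM in WT (3.07 ± 0.23), and nhr-15 had 308, 383 and 299 RPKM in hrde-1, against 1483, 1358 and 1255 RPKM in WT (−2.05 ± 0.14). Of 1338 chemoreceptor genes, most of which were near the floor, 6 rose (0.448%) and 5 fell (0.374%). srsx-25 (Y62E10A.4, chromosome IV, 13365169 to 13368435) stood out, with 257, 278 and 289 RPKM in hrde-1, against 10.7, 9.38 and 13.6 RPKM in WT (4.51 ± 0.23).

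Of 20 genes of oocytes and early embryos and 27 of the mitotic germline and meiosis, none was called in either direction by limma, with medians of 0.37 and 0.15. At an unadjusted p under 0.05, 10 of the 20 and 3 of the 27 were higher and 0 of each were lower, where all genes gave 7.96% higher and 7.54% lower. All 3 mutant libraries were above all 3 WT libraries at 9 of the 20 oocyte genes, against 8.08% of all genes. Of 78 spermatogenesis genes, 2 rose (2.56%) and 4 fell (5.13%, median 0.13), where 2.68% of all genes were called higher and 3.18% lower. spe-51, whose product acts in fertilisation, had 38.6, 52.5 and 52.02 RPKM in hrde-1, against 2.35, 4.63 and 1.27 RPKM in WT, a ratio of 43 in reads (12 to 362), and the sperm TRPC channel gene spe-41 had 11.9, 16.1 and 11.7 RPKM in hrde-1, against 68.9, 54.2 and 48.9 RPKM in WT (−2.03 ± 0.29). Of 16 heat shock genes none was called in either direction by limma, with 0 higher and 2 lower at an unadjusted p under 0.05, and the heat shock factor gene hsf-1 was lower at a fold under 2, with 89.3, 117 and 94.1 RPKM in hrde-1, against 144, 152 and 153 RPKM in WT (−0.59 ± 0.13, limma adjusted p = 0.00466). Of 70 histone genes, 4 rose (5.71%) and 0 fell (median 0.28). At an unadjusted p under 0.05, 23 of the 70 were higher (32.9%) and 1 was lower (1.43%). All mutant libraries were above all WT libraries at 16 of the 70 and under them at 1. Several histone genes had values identical to those of other copies, so these counts are not of separate measurements. his-67 had 298, 347 and 329 RPKM in hrde-1, against 142, 163 and 148 RPKM in WT (1.10 ± 0.17), his-41 rose by 1.34 ± 0.19, and his-52 and his-54 (1.54) had identical values in every library.

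**Figure D3:**
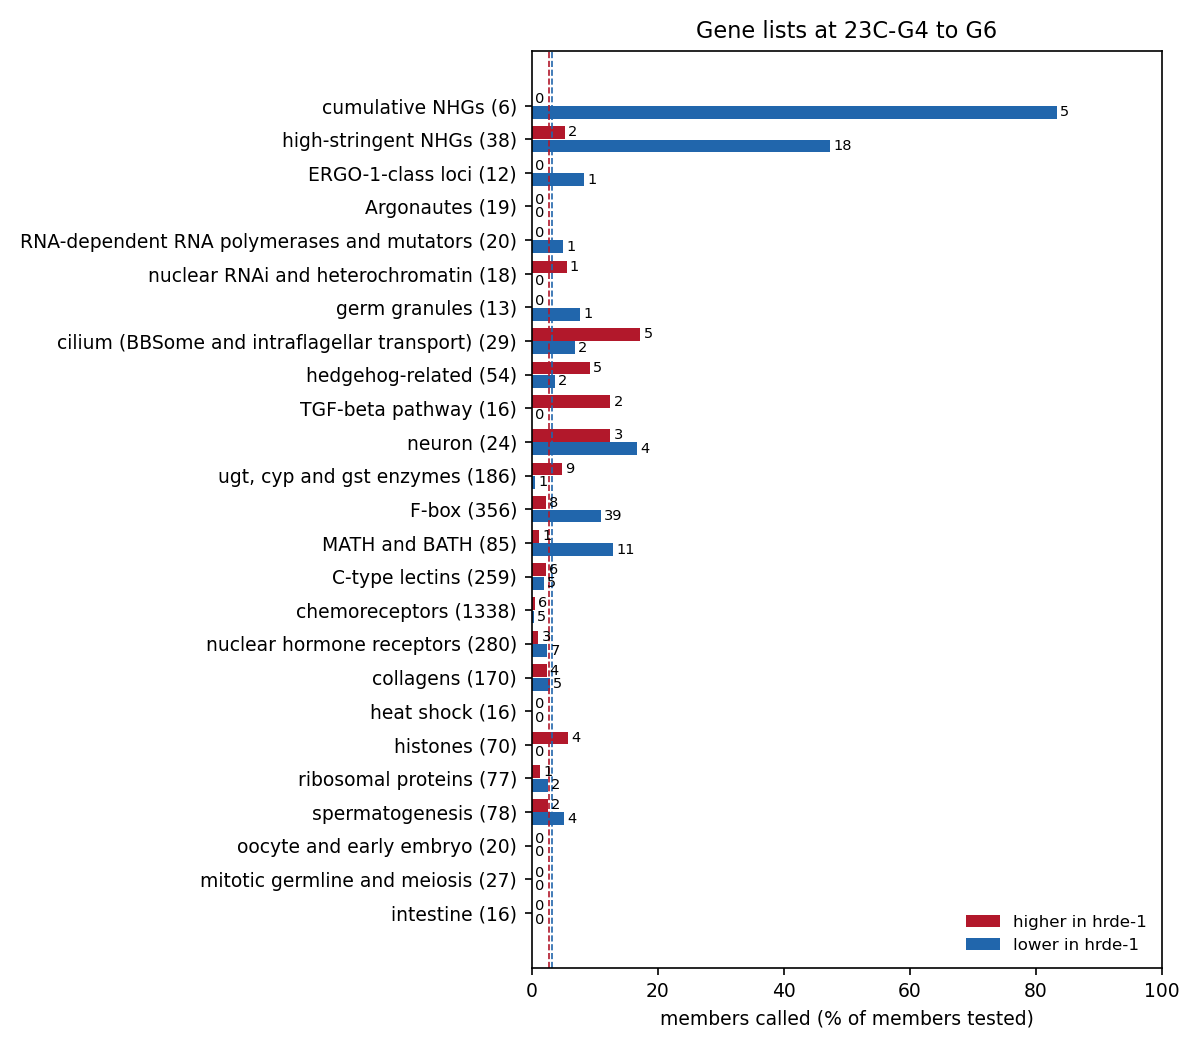
Share of the tested members of each gene list that were called higher (red) or lower (blue) in hrde-1 at 23C-G4 to G6 (percent, with counts at the bars and the number tested in brackets); dashed lines mark the 2.68% higher and 3.18% lower of all genes. Losses take 18 of 38 high-stringent NHGs and 5 of 6 cumulative NHGs, while 0 of 19 Argonaute genes (a list without hrde-1) were called.

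The chromosomes differed in the balance of gains and losses. The X chromosome held 13.3% of the genes tested on nuclear chromosomes, 16 of the 513 placed genes that rose (3.119%) and 161 of the 603 placed genes that fell (26.7%). Without hrde-1 23C-G6, X held 1.89% of the genes that rose. On X, 0.624% of the genes tested rose and 6.28% fell. On the autosomes the share that rose was between 1.95% on chromosome V and 4.19% on chromosome III, and the share that fell was between 2.04% on chromosome IV and 3.69% on chromosome I. Among the losses on X were K09E3.4, F41G4.7, meg-4, rpl-11.2 (−3.13 ± 0.36) and the AC8 genes. Neighbouring genes on a chromosome are not independent of each other.

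**Figure D4:**
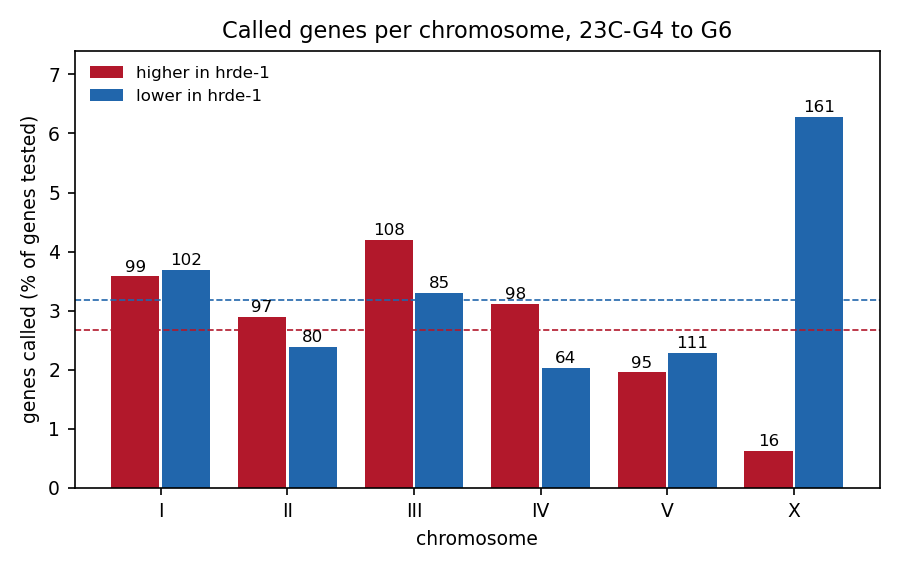
Share of the genes tested on each chromosome that were called higher (red) or lower (blue) in hrde-1 at 23C-G4 to G6 (percent, with counts above the bars); dashed lines mark 2.68% and 3.18%, the shares of all genes tested. Chromosome X has 16 higher and 161 lower genes, and each autosome between 95 and 108 higher and between 64 and 111 lower genes.

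Some called genes stood next to each other. A gene called the same way was the nearest tested neighbour on at least one side of 93 of the 513 placed genes that rose (18.1%) and 135 of the 603 that fell (22.4%). Of all placed genes, 2.66% rose and 3.13% fell. Whether the neighbour shares exceed those of independently placed calls was not tested. The longest run was on X at 226651 to 240781, where the siRNAs of AC8.4, AC8.3, AC8.7, AC8.11, AC8.10 and AC8.12 fell together (−2.96 to −1.34). The 6 genes hold 3 pairs with identical values, so this run gives 3 separate measurements. On chromosome IV at 12711217 to 12724760, the siRNAs of C27D8.2, C27D8.1, idpp-7, T23F6.2 and T23F6.3 rose (1.15 to 3.91), of which C27D8.2 was called in only part of the fits with 1 library left out and C27D8.1 was not called without WT 23C-G6. cdh-1, a cadherin gene, and R10F2.4, R10F2.5 and R10F2.6 fell on chromosome III (−3.20 to −1.84). F15D4.4, F15D4.5 and F15D4.6 fell on chromosome II, and F16B4.4, F16B4.3 and F16B4.2 rose on chromosome V.

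Gains and losses also lay side by side. Of the pairs of called genes that were neighbours among the tested genes, 50 were both higher, 75 both lower, and 35 were made of a gene that rose and a gene that fell. Independently placed calls also give opposite pairs, and whether 35 exceeds their number was not tested. These 35 pairs held 66 genes, with a median gap of 2051 bases, and 21 of them were on the same strand. The genes described here were chosen after their values were seen. C08F11.7 (chromosome IV, 13637275 to 13638666), which ends before ugt-22 on the same strand, had 29.4, 35.8 and 35.4 RPKM in hrde-1, against 716, 623 and 488 RPKM in WT (−4.13 ± 0.29), where ugt-22 itself rose. F16B4.5, next to F16B4.4, had 47.3, 14.8 and 18.6 RPKM in hrde-1, against 285, 294 and 237 RPKM in WT (−3.46 ± 0.39). Each of these pairs thus had an siRNA-rich gene and an siRNA-poor gene in both genotypes, in opposite order.

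Other opposite neighbours included several of the genes described above. Y61A9LA.12 had 119.79, 138 and 94.3 RPKM in hrde-1, against 941, 838 and 808 RPKM in WT (−2.88 ± 0.13), beside the gain at Y61A9LA.7. xdh-1, the xanthine dehydrogenase gene (chromosome IV, 14401114 to 14412894), had 54.5, 56.9 and 38.5 RPKM in hrde-1, against 2.43, 1.06 and 1.32 RPKM in WT (4.31 ± 0.30), beside F55B11.6, with 160.28, 181 and 146 RPKM in hrde-1, against 1175, 1279 and 1122 RPKM in WT (−2.87 ± 0.15). On chromosome II, Y53F4B.5 and Y53F4B.7 rose (1.20 and 2.30) and Y53F4B.6 and Y53F4B.10, which lie between and after them, fell (−1.83 and −2.56). ZK262.9 (−4.31) lay beside ZK228.1 (4.05 ± 0.38), and the cumulative NHG F58H7.5 beside lgc-30, a ligand-gated ion channel gene, with 191, 217 and 168 RPKM in hrde-1, against 23.1, 24.8 and 18.2 RPKM in WT (3.07 ± 0.28). Of the 35 pairs, 4 overlapped, each on opposite strands.

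The genotype effect at 23C-G4 to G6 was then set beside that of the other generations, which share no libraries with it. At 15C-G1 to G3, 738 genes were higher (3.72% of genes tested) and 813 lower (4.1%) in hrde-1. At 23C-G1 to G3 there were 496 (2.5%) and 635 (3.2%), and at p15C-G1 to G3 there were 724 (3.65%) and 862 (4.34%). Of the genes that rose late, 321 had also risen at 15C-G1 to G3 (60.5% of the late and 43.5% of the 15C genes), 349 rose at 23C-G1 to G3 (65.7% and 70.4%) and 395 at p15C-G1 to G3 (74.4% and 54.6%). Of those that fell late, 357 (56.7% and 43.9%), 426 (67.6% and 67.1%) and 397 (63.0% and 46.1%) fell there. Gains at 270 genes and losses at 260 were called in all 4 groups of generations, among them ugt-22, bbs-5, sma-2, trp-4 and rimb-1. Called late and in no other group were 92 gains and 107 losses.

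Against 23C-G1 to G3, no gene had a genotype effect that was called different at the thresholds used. Mutant levels of some genes climbed within 23C-G1 to G3, and such a climb enters the spread that the test uses. At nadk-1, described below, the mutant had 40.95, 175 and 297 RPKM there, and the difference was 2.94 ± 0.65 (limma adjusted p = 0.245). The lack of calls is therefore no evidence that the effects were equal. The test of the difference called 0 genes in each direction (limma, lowest adjusted p = 0.194), while 404 genes had an unadjusted p under 0.05 with a larger log2 effect late and 444 with a smaller one. Against 15C-G1 to G3, the log2 effect was greater late at 219 genes (1.1%) and smaller at 277 (1.4%). With the read floor taken off these counts were 143 and 290. Temperature, the number of generations and the harvest time (50 to 55 h late, 114 to 120 h at 15 °C) changed together between these groups and cannot be told apart. The 219 held 54 gains not called before heat, 9 genes called lower before and higher late, and 89 that had been called lower before and were no longer called. The 277 held 71 losses not called before heat, 5 genes called higher before and lower late, and 100 that had been called higher before and were no longer called. Chromosome X held 14.1% and 13.97% of the placed genes of these sets.

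The difference was largest at nadk-1 (Y77E11A.2, chromosome IV, 1457075 to 1459521), the NAD kinase gene, where the genotypes changed places. Late, nadk-1 had 514, 566 and 644 RPKM in hrde-1, against 76.1, 87.7 and 61.1 RPKM in WT (2.93 ± 0.46). At 15C-G1, G2 and G3 it had 3.53, 6.16 and 5.09 RPKM in hrde-1, against 181, 210.4 and 152 RPKM in WT (−4.95), and the effects differed by 7.89 ± 0.65 (limma adjusted p = 4.64e-07). At 23C-G1, G2 and G3 the mutant had 40.95, 175 and 297 RPKM, against 158, 145 and 95.3 RPKM in WT. After the return to 15 °C, the mutant had 436, 277 and 140.13 RPKM, against 108, 166 and 143 RPKM in WT. The mutant was thus under WT up to 23C-G1, above it from 23C-G2 to p15C-G2, and at the WT level at p15C-G3.

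Other genes had their late gain from lower levels of the mutant before heat. htrl-1 (T11F9.12, chromosome V) had 0.65, 0.85 and 0.56 RPKM in hrde-1 at 15C-G1 to G3, 1.35, 16.6 and 28.4 RPKM at 23C-G1 to G3, and 38.7, 88.8 and 109 RPKM at 23C-G4 to G6, while WT did not exceed 2.33 RPKM in any of its 12 libraries. The difference between late and before was 5.40 ± 0.84 (limma adjusted p = 6.39e-04). epic-3 (K08D12.7, chromosome IV) was at 3.43 to 7.27 RPKM in hrde-1 up to 23C-G2, at 97.4 RPKM at 23C-G3, and at 160.28, 173 and 285 RPKM at 23C-G4 to G6, against 8.83, 5.79 and 4.79 RPKM in WT at 23C-G4 to G6. ZK228.4 had 557, 836.5 and 699 RPKM in hrde-1 late, against 18.6, 17.1 and 6.06 RPKM in WT. Before heat it stood at 13.4, 10.9 and 15.9 RPKM in hrde-1, against 6.66, 30.2 and 13.9 RPKM in WT. Its neighbour ZK228.1 had 136, 188 and 138 RPKM in hrde-1 late, against 7.37, 13.5 and 5.59 RPKM in WT, after 8.61, 5.2 and 5.72 RPKM in hrde-1, against 15.8, 20.3 and 12.8 RPKM in WT, before heat. grl-18 (4.98 ± 0.64) and asm-3 (4.08 ± 0.57), named above, also had a greater effect late than before heat, when asm-3 was already called higher in hrde-1 (1.64). ZK228.1 had then been called lower (−1.21).

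In the opposite direction, WT was higher late than before heat, or the mutant was lower. cpr-9 (F57F5.1, chromosome V, 12003053 to 12004584), a cathepsin B-like protease gene, had 8.08, 14.2 and 3.98 RPKM in hrde-1 late, against 138, 179 and 113 RPKM in WT (−4.0 ± 0.38). Before heat it had 11.55, 15.11 and 21.8 RPKM in hrde-1, against 9.75, 15.2 and 16.01 RPKM in WT, and the effects differed by −4.22 ± 0.54 (limma adjusted p = 6.47e-05). The genotypes overlapped before heat, and WT alone was high late. T05C3.6, which lies next to grl-18, had 19.4, 22.1 and 8.68 RPKM in hrde-1 late, against 53.1, 68.2 and 50.9 RPKM in WT (−1.80 ± 0.45, or −1.42 and not called without hrde-1 23C-G6), and 49.5, 31.2 and 47.1 RPKM in hrde-1 before heat, against 8.51, 3.31 and 1.27 RPKM in WT. The fructose-bisphosphate aldolase gene aldo-1 had 8.80, 1.72 and 2.17 RPKM in hrde-1 late, against 33.1, 25.03 and 29.0 RPKM in WT, where WT over hrde-1 was 13.4 in reads (4.3 to 67.2). Before heat it stood at 22.9, 19.4 and 31.6 RPKM in hrde-1, against 6.07, 4.1 and 7.93 RPKM in WT. ZC84.7 lost its gain, with 5.40, 12.7 and 5.32 RPKM in hrde-1 late, against 6.25, 4.10 and 3.39 RPKM in WT, after 140.44, 136 and 104.35 RPKM in hrde-1, against 3.73, 5.07 and 3.89 RPKM in WT, before heat. C07G1.7 did likewise, with 9.34, 10.96 and 4.59 RPKM in hrde-1 late, against 16.2, 10.6 and 17.6 RPKM in WT.

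**Figure D5:**
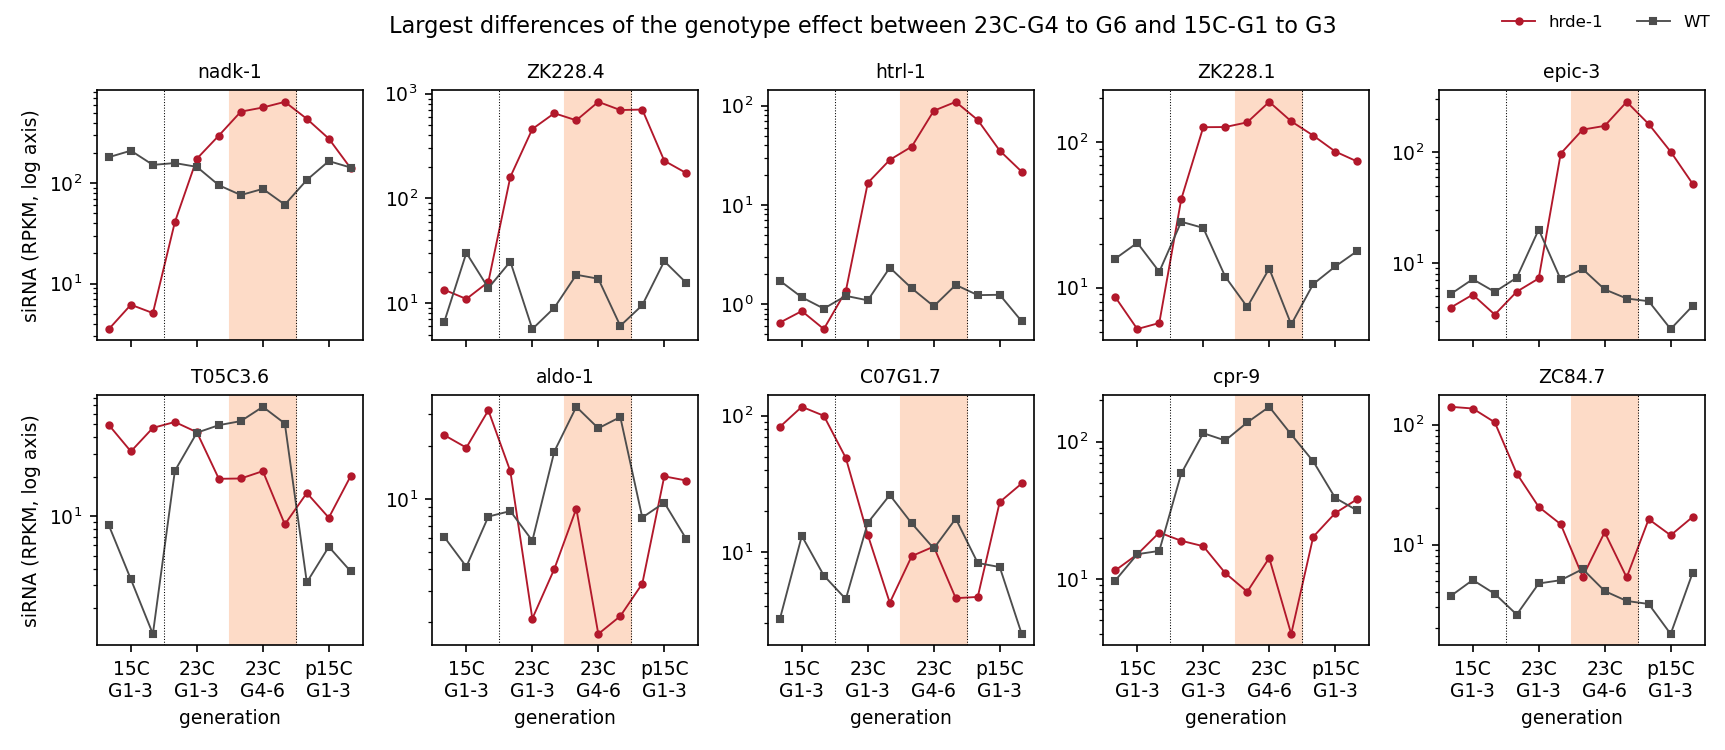
siRNA level in each of the 24 libraries (RPKM, logarithmic axes) over the 12 generations for the 5 genes with the largest positive and the 5 with the largest negative difference of the genotype effect between late heat and 15C-G1 to G3 (red circles, hrde-1; grey squares, WT; shading, 23C-G4 to G6; dotted lines, temperature shifts). nadk-1 reached 644 RPKM in hrde-1 at 23C-G6, where WT had 61.1 RPKM, and cpr-9 stood at 3.98 RPKM in hrde-1 and 113 RPKM in WT in that generation.

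The genes whose call turned round between 15C-G1 to G3 and 23C-G4 to G6 were few, and those named here were chosen after their values were seen. Beside nadk-1 and ZK228.1, the 9 that turned from lower to higher included the F-box genes fbxa-55, fbxa-58, fbxa-59 and fbxa-60, of which fbxa-55, fbxa-59 and fbxa-60 lie within 933422 to 946300 on chromosome III. fbxa-60 had 227, 304 and 423 RPKM in hrde-1 late, against 40.4, 59.1 and 31.1 RPKM in WT (2.84 ± 0.35), and the effect differed from that before heat by 4.79 ± 0.50 (limma adjusted p = 9.86e-06). In fbxa-59 and its neighbour fbxa-55, every mutant library was likewise above every WT library late, at 21.99 to 57.96 RPKM and 37.8 to 139.27 RPKM in hrde-1 and 12.8 to 18.7 RPKM and 13.4 to 20.6 RPKM in WT. The others were the dystroglycan gene dgn-2, the peroxidasin gene pxn-1 and ugt-51. The calls of dgn-2, pxn-1 and ugt-51 each depended on single libraries, and dgn-2 passed the threshold by the least (limma adjusted p = 0.0999). At dgn-2 the genotypes overlapped late, with a lowest mutant library of 4.73 RPKM and a highest WT library of 5.47 RPKM. Its call was lost under 9 alternatives, among them a robust fit and leaving out WT 23C-G4, WT 23C-G6, hrde-1 23C-G4 or hrde-1 23C-G5. The 5 that turned from higher to lower were T05C3.6, aldo-1, C44B12.6, Y37A1B.4 and Y53F4B.10. Y53F4B.10 had 44.8, 54.2 and 16.04 RPKM in hrde-1 late, against 208, 239 and 176 RPKM in WT (−2.56 ± 0.40), and had been higher in hrde-1 before heat (1.24). Y37A1B.4 was not called late without WT 23C-G5 (−1.21).

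At the cumulative NHGs other than F40D4.13, the genotype effect was called more negative late than before heat. WT means were higher late and mutant means were lower. At F41G4.7 the mean went from 433 to 916 RPKM in WT and from 232 to 60.9 RPKM in hrde-1. At C18D4.6 it went from 114 to 405 RPKM in WT and from 110 to 63.2 RPKM in hrde-1. The effect differed by −2.99 ± 0.32 at F41G4.7 (limma adjusted p = 9.86e-06), −2.60 ± 0.38 at C18D4.6, −1.86 ± 0.27 at ZC15.3, −1.46 ± 0.24 at F58H7.5 and −1.42 ± 0.31 at ZC15.10. At C18D4.6, F58H7.5 and ZC15.10 the effect before heat had been −0.06, 0.08 and 0.43. F40D4.13 was low in the mutant throughout (−3.25 before heat) and its difference was not called. ZK262.9, an LTR-linked NHG, had an effect of −1.07 before heat, and its late effect differed from that by −3.24 ± 0.35. Its mean went from 262 to 603 RPKM in WT and from 125 to 31.3 RPKM in hrde-1. Set against p15C-G1 to G3, a comparison chosen after seeing the data, the late log2 effect was greater at 69 genes (0.348%) and smaller at 60 (0.302%).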

How the data were processed

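Small RNA sequencing was done by the authors on whole adults of the hrde-1 mutant and WT over 12 generations. The deposited values are RPKM. According to the methods, the authors matched reads to WS190 mRNAs with Bowtie 0.12.7, kept perfect antisense matches, and divided by total reads and exon length. There were 20911 transcripts of 20167 genes, none with a value of 0. Low values lay on whole steps of the smallest one, scaled by length, in 85.8% of cases (7806 transcripts, tolerance of 0.1 step), as if 1 read had been added to each transcript. Depths and reads are inferred from these steps and assume that 1 step is 1 read.

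Values were analysed as log2(RPKM + 1), with 1 pseudocount RPKM and the isoform with the highest mean per gene, for the 19839 genes that averaged 1 RPKM or more in the 24 libraries. A trended two-sided moderated test (lmFit and eBayes of limma 3.58.1, R 4.3.3) fitted 8 means, genotype by 3 generations each, over all 24 libraries, and contrasts gave the effects and their differences. The fit was tested on simulated data. Depth was 299400 to 1043100 inferred reads per library. Alternatives were other pseudocounts and filters, median-ratio scaling, the floor taken off, all transcripts, only the libraries compared, a generation block, a robust fit and leaving out each library. Named genes were the 15 largest called changes per direction (mean of at least 10 RPKM, no overlap), the 5 largest by RPKM, the 5 largest differences from 15C and 23C-G1 to G3, hrde-1, hsp-16.48, the cumulative NHGs, up to 4 called members of each list, and runs of at least 3 neighbours. The members and lists were chosen with earlier results of these data known. Positions are from WBcel235, found by name for 97.0% of genes, and are not WS190 positions. Scripts ran under python 3.11.15 with numpy 2.4.6, pandas 2.3.3 and matplotlib 3.10.9.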

Additional observations from a re-analysis of the deposited data

Results flagged for a closer look

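The genotype effect of late heat differed from that before heat, by limma's test of the difference, at 219 genes with a greater and 277 genes with a smaller log2 effect at 23C-G4 to G6 than at 15C-G1 to G3. With the read floor taken off they were 143 and 290. The largest positive differences were 7.89 at nadk-1, 5.76 at ZK228.4, 5.40 at htrl-1, 5.26 at ZK228.1 and 5.21 at epic-3. The largest negative differences were −5.04 at T05C3.6, −4.64 at aldo-1, −4.49 at C07G1.7, −4.22 at cpr-9 and −4.02 at ZC84.7. At C07G1.7 and ZC84.7 the late effect itself was not called.

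The effect of late heat also differed from that after the return to 15 °C (p15C-G1 to G3), at 69 genes with a greater and 60 genes with a smaller log2 effect late. hif-1, the hypoxia-inducible factor gene, was called in opposite directions in these groups and is named after its values were seen. It had 5.44, 5.96 and 7.50 RPKM in hrde-1 late, against 2.52, 1.65 and 3.41 RPKM in WT (1.07 ± 0.30), from 16 and 6 reads above the floor. At p15C-G1 to G3 its means were 3.26 RPKM in hrde-1 and 7.82 RPKM in WT (−1.07). Both effects of hif-1 were thus just past the 2-fold minimum, on few reads. otpl-6, pxn-1 and dgn-2 were likewise higher late and lower afterwards, and T05C3.6 was lower late and higher afterwards. The late calls of pxn-1, dgn-2 and T05C3.6 were each lost under at least 1 alternative.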

How the results depend on the processing

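The counts of genes called late stayed within 1.5 times those reported under each alternative run, at 386 to 591 higher and 425 to 708 lower genes, and at 496 to 547 higher and 562 to 661 lower when 1 library was left out. With genes of identical values counted once, a choice made after seeing the data, they were 528 and 623. The difference from 23C-G1 to G3, 0 genes as reported, was called at 4 genes up and 3 down with a pseudocount of 10 RPKM, at 3 up with the read floor taken off, and at 0 to 1 up when 1 library was left out (1 without WT 23C-G4). The difference from 15C-G1 to G3 was called at 143 genes up and 290 down with the floor taken off, so that the share up was 33.0%, against 44.2% as reported. Leaving out 1 library gave 172 to 253 up and 220 to 296 down. Its all-gene median was 0.23 as reported and 0.00 with the floor taken off. The cause was not tested.

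The libraries share generation numbers, but these were not taken as pairs, since not every same-numbered pair correlated above 0.1. The deviations correlated at −0.02, 0.25 and 0.10 late, where hrde-1 23C-G4 correlated best with WT 23C-G6 (0.15), at 0.37, 0.09 and 0.17 at 15C-G1 to G3, at 0.16, 0.27 and 0.23 at 23C-G1 to G3, and at 0.11, 0.12 and 0.12 at p15C-G1 to G3. With generation as a replicate block, 559 genes were higher and 677 lower late, the difference from 15C-G1 to G3 was called at 314 up and 383 down, and the difference from p15C-G1 to G3 was called at 114 genes up and 103 down, against 69 and 60. Without WT 23C-G4, the shallowest library, the all-gene median of the late effect was 0.25.

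Of 189 values of named genes, 183 of them called, 33 lost or gained the call under at least 1 alternative and 0 were reversed. With a pseudocount of 10 RPKM, 7 MATH and BATH genes fell, 3 cilium genes and 4 detoxification genes rose, X held 0.804% of the genes that rose, and 37 neighbouring pairs were both lower. Depth limits genes with few reads, where the floor sets the lower group's value.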

Other observations

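Collagen, C-type lectin and ribosomal protein genes were called in both directions, at shares near or under those of all genes (2.68% higher and 3.18% lower). Of 170 collagen genes, 4 rose (2.35%) and 5 fell (2.94%). col-89 had 79.5, 134 and 113 RPKM in hrde-1, against 7.21, 18.9 and 15.6 RPKM in WT (2.95 ± 0.51), and col-162 had 4.77, 5.6 and 6.78 RPKM in hrde-1, against 69.9, 90.1 and 84.2 RPKM in WT, where WT over hrde-1 was 27.6 in reads (9.17 to 136). Of 259 C-type lectin genes, 6 rose (2.32%) and 5 fell (1.93%), though 0 rose with a pseudocount of 10 RPKM, 3 without WT 23C-G6 and 3 without hrde-1 23C-G6. Of 77 ribosomal protein genes, 1 rose and 2 fell. rpl-11.2 on chromosome X had 4.03, 12.63 and 7.94 RPKM in hrde-1, against 60.7, 71.9 and 91.1 RPKM in WT (−3.13 ± 0.36). Of 9 muscle genes tested, unc-87, a calponin-like gene, rose, with 34.2, 47.3 and 46.1 RPKM in hrde-1, against 1.43, 1.87 and 2.32 RPKM in WT, a ratio of 42.8 in reads (14.3 to 211). Of 16 intestinal genes none was called in either direction by limma (median −0.17), with 1 higher and 1 lower at an unadjusted p under 0.05, where all genes gave 7.96% and 7.54%.

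Values that were identical in all 24 libraries were shared by 294 genes in 88 groups, and 20 of the called genes were in such groups. Some groups were copies, such as AC8.4 and AC8.11, whose reads cannot be told apart. Others joined genes of unrelated names, such as gly-1 and sra-12, which were not called. The number of genes in such groups is therefore not a number of copies.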
